A study of Mus musculus and Rattus norvegicus with 8 samples.

Results

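Nppa, Myl4, Myl7, Myh6, Tnnt2, Tnni3, Actc1, Atp2a2, Ryr2 and Mybpc3 are 10 genes of heart muscle, and they were followed here in RNA of whole mouse and rat lung. Their probe sets were chosen by name: every probe set whose only gene symbol is one of these 10 was taken. That gave 32 of 21162 probe sets, for 10 of the 9931 genes named on either array. The mouse array held 12 of them among 12422, for all 10 genes. The rat array held 20 among 8740, for 9 genes, since no rat probe set carried Mybpc3 alone. A further 5 rat probe sets name Actc1 or Myh6 together with another actin or myosin gene, and they were not used here.

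The study measured lung RNA on 8 Affymetrix arrays, 2 per group. Male C57BL6 mice, 7 to 8 weeks old, were ventilated at a tidal volume of either 17 ml/kg, kept up for 6 hours, or 35 ml/kg, kept up for 2 hours, and their controls breathed spontaneously with no ventilator. The labels do not tie a regimen to an array, so the 2 ventilated mouse arrays form 1 group that may mix regimens. Male Wistar rats, 8 weeks old, were ventilated with room air at 12 ml/kg for 5 hours, and the rat controls carried the same tracheal cannulas and breathed by themselves. The labels do not say what the replicate numbers share, and the p-values measure only the spread between these samples. No two-sided exact permutation test of 2 arrays against 2 can go below p = 0.333, so the tests below are those of a model fitted across all genes.

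Heart muscle contracts when calcium leaves the sarcoplasmic reticulum through the ryanodine receptor Ryr2, binds the troponin complex on the thin filament and lets myosin pull on actin. Relaxation follows as the pump Atp2a2 returns calcium to the reticulum. The lung is not free of this muscle: in mice and rats, sleeves of heart muscle extend from the left atrium along the pulmonary veins into the lung. Nppa, Myl4 and Myl7 are mainly atrial in the adult heart, Myl2 is the ventricular regulatory light chain, and Atp2a2 and Ryr2 are also used outside heart muscle.

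Values are normalised signals, in arbitrary units of probe set brightness, in the order control 1, control 2, ventilated 1, ventilated 2. A difference is ventilated minus control on the log2 scale, from limma, with its standard error (SE). A gene was called when its Benjamini-Hochberg adjusted p over all genes tested was under 0.05. A floor was put at the 25th percentile, 14.25 for mouse and 11.475 for rat signals, before log2 was taken, and the brightest probe set stood for a gene. Signals of different probe sets cannot be ranked against each other. In bulk tissue, fewer muscle cells and less of a transcript per cell cannot be told apart.

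The tissue carried lung markers in both species. Sftpc, a surfactant protein gene of alveolar type 2 cells, had the top normalised value of 8462 on every mouse array and 3097, 2884, 1643 and 1969 on the rat arrays. Replicate arrays correlated at r = 0.935 for mouse controls, 0.908 for ventilated mice, 0.967 for rat controls and 0.977 for ventilated rats, across the genes tested. In the mouse, the ratio of the 3' to the 5' Gapdh control probe set was 2.96, 1.16, 1.53 and 2.48, lowest on control 2. The same ratio for beta actin was 2.18, 1.88, 1.80 and 2.21, lowest on ventilated 1 with control 2 next to it. The hybridisation spike-ins of ventilated 1 were 2.62 times the mean of the controls, against 0.96 to 1.01 on the other 3 mouse arrays. No such probe sets were in the rat table.

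All 10 genes had a signal above the floor on every mouse array, and all 10 were highest on control 2. Across all 6888 mouse genes tested, 23.9% were highest on that array. The difference was negative for 10 of 10 genes, against 53.2% of all genes, with a median of -0.66 against -0.03 over all genes. No gene of the 10 was called, and neither was any other mouse gene, so the background of calls was 0%. At an unadjusted p under 0.05, 178 genes passed, 2.58% of those tested, and they included Myh6 and Mybpc3. Both of these were lower in ventilated lung, as were 0.973% of all genes at that p. The count of 10 negative genes depended on control 2. Without that array, 5 of the 10 genes were positive, 5 were negative and their median was -0.047, while without control 1 all 10 were negative and their median was -1.18.

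**Figure D1:**
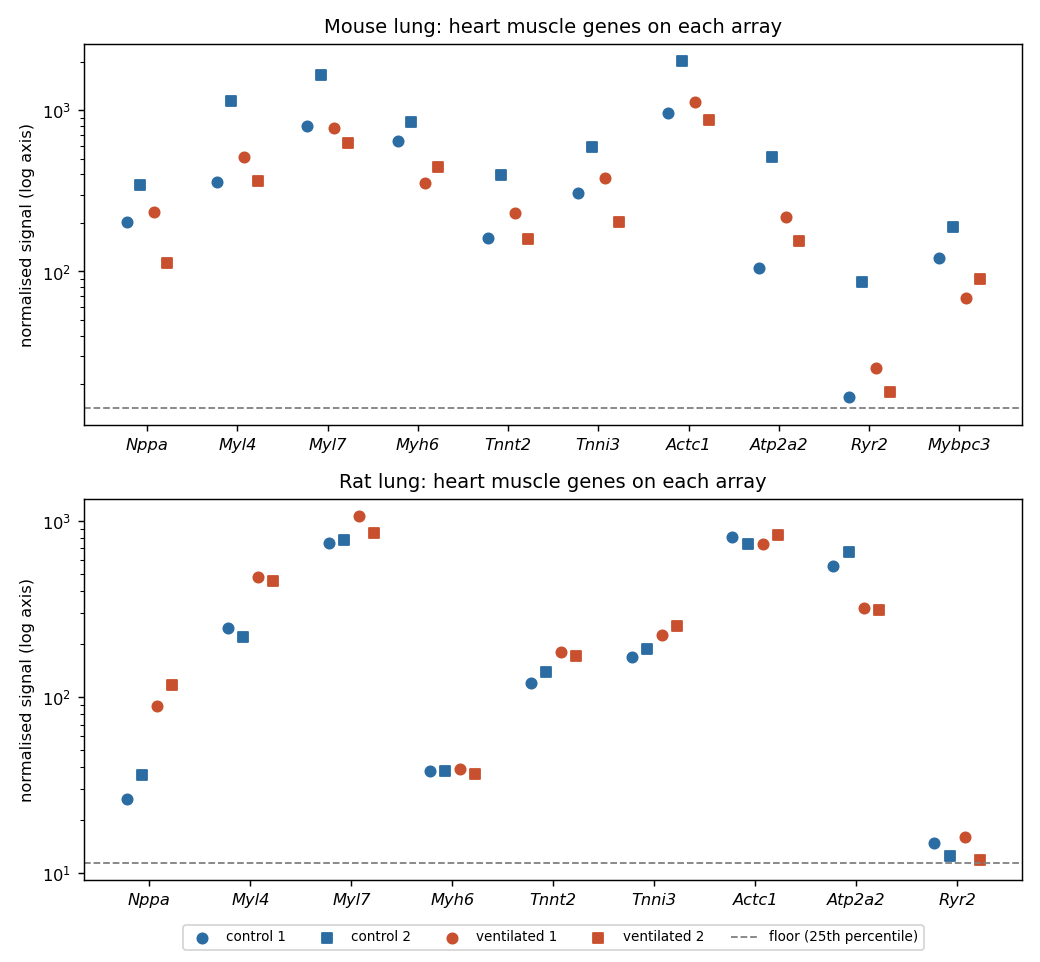
Normalised signal (log axis) of each heart muscle gene on each of the 4 mouse arrays (top) and the 4 rat arrays (bottom), 1 point per array, with the floor at the 25th percentile as a dashed line. Control 2 is the top point for all 10 mouse genes, and in the rat the ventilated points lie above both controls for Nppa, Myl4, Myl7, Tnnt2 and Tnni3 and below them for Atp2a2.

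Among the atrial genes, Nppa encodes atrial natriuretic peptide, a hormone that atrial muscle stores and releases. Its mouse signals were 203, 343, 232 and 113. Ventilated 1 lay between the controls and ventilated 2 below both, with a difference of -0.71 (SE 0.45). Leaving out ventilated 2 gave -0.18 for Nppa and leaving out ventilated 1 gave -1.25, so this value moved with the ventilated arrays as well. Myl4, the atrial essential light chain of myosin, read 360.15, 1147, 516 and 362. Control 2 was far above an otherwise close set, and the difference was -0.57 (SE 0.55). Myl7, the atrial regulatory light chain, read 798, 1646, 774 and 629.8. Here both ventilated arrays lay below both controls, but ventilated 1 was close to control 1. The difference was -0.71 (SE 0.38), and -0.19 without control 2.

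On the thick filament, Myh6 encodes the alpha myosin heavy chain, the main motor of rodent heart, and Mybpc3 the myosin binding protein that tunes it. Myh6 gave signals of 643, 839, 355 and 444. Mybpc3 gave 121, 189, 68.55 and 90.06. These were the genes with the clearest separation of the groups. The difference was -0.89 for Myh6 (SE 0.28, 95% interval -1.56 to -0.22) and -0.95 for Mybpc3 (SE 0.37, interval -1.84 to -0.05), each at a limma adjusted p of 0.99969. With Myl7, 3 of the 10 genes had groups that did not overlap, all lower in ventilated lung, where 14.5% of all genes did so. Of all genes 13% did so in the other direction, where 0 of the 10 did.

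The thin filament genes overlapped between the groups. Tnnt2, troponin T, which ties the troponin complex to tropomyosin, read 162, 397, 231 and 159. Tnni3, the inhibitory troponin, read 307, 591, 379 and 203. Control 1 and ventilated 2 were the low arrays for both. Actc1, cardiac alpha actin, read 956, 2009, 1128 and 869. The differences were -0.41 for Tnnt2 (SE 0.48), -0.62 for Tnni3 (SE 0.45) and -0.49 for Actc1 (SE 0.38). For Tnni3 it was -0.14 without control 2 and -0.17 without ventilated 2.

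Both calcium handling genes spread most. Atp2a2 read 105, 509, 217 and 155, and its difference was -0.34 (SE 0.71). Ryr2 was close to the floor on 3 arrays, at 16.75, 86.1, 25.25 and 17.9, with a difference of -0.84 (SE 0.78). Control 1 had the lowest signal for both, and control 2 had the highest. Without control 2 the difference turned positive for Atp2a2 (0.80), Ryr2 (0.33), Myl4 (0.27), Tnnt2 (0.24) and Actc1 (0.049).

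**Figure D2:**
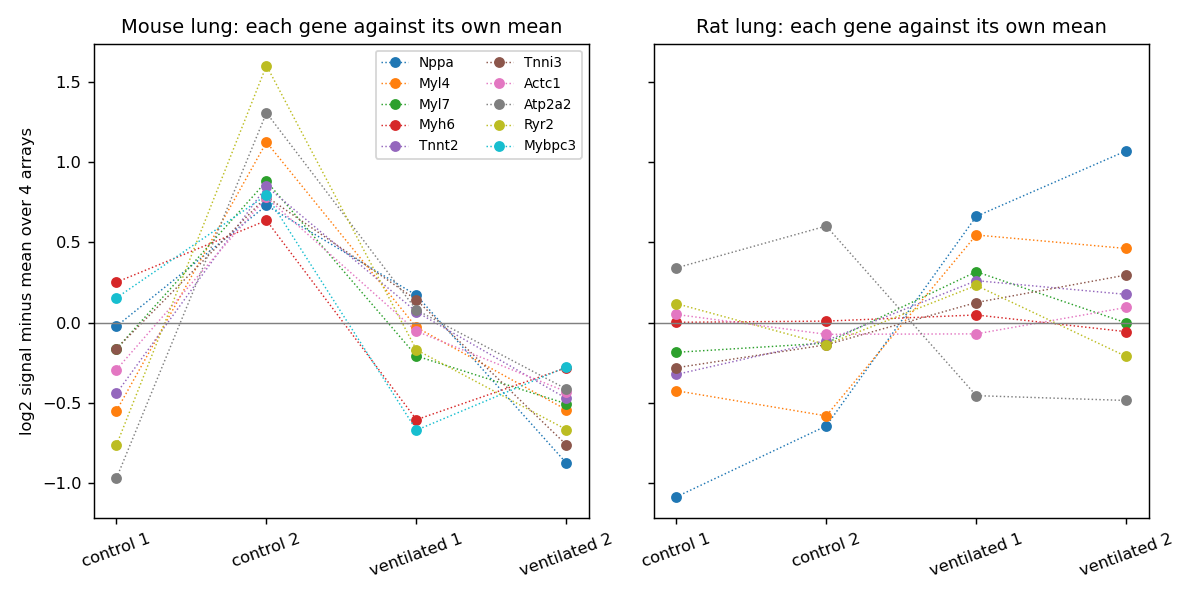
Log2 signal of each heart muscle gene minus its mean over the 4 arrays of its species, 1 line per gene, mouse and rat apart. The mouse lines peak together on control 2, and their mean is 0.95 there against -0.30, -0.13 and -0.52 on control 1, ventilated 1 and ventilated 2, while the rat lines go in different directions.

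A second mouse probe set existed for Myl4 and for Actc1. The other Actc1 probe set read 440.4, 1333, 513 and 509, with control 2 again the highest and a difference of -0.58 (SE 0.51). The other Myl4 probe set read 218, 158, 181 and 173, and there control 2 was the lowest, so the Myl4 probe sets disagreed. Its difference was -0.07 (SE 0.31).

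The start of 3 of the mouse genes is shown: Nppa, Myl7 and Actc1, a hormone, a myosin light chain and an actin. Each window is the RefSeq promoter of mouse build GRCm38.p6, 250 bases before to 50 after the annotated start, read 5' to 3' on the strand of the gene. Capitals mark matches on either strand to TATAAA, the TATA box. They also mark GATAA, a core bound by the GATA family. Another, CATTCC, is bound by TEAD factors, and the last is the CArG box of serum response factor. Nppa lies at chr4:148000472-148000771 on the plus strand, Myl7 at chr11:5898733-5899032 on the minus strand and Actc1 at chr2:114052826-114053125 on the minus strand.
Nppa: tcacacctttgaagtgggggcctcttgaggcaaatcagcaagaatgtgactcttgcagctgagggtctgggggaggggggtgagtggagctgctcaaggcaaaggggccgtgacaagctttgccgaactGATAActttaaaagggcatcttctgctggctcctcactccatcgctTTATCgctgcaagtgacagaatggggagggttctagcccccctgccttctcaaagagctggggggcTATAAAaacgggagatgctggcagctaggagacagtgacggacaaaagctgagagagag
Myl7: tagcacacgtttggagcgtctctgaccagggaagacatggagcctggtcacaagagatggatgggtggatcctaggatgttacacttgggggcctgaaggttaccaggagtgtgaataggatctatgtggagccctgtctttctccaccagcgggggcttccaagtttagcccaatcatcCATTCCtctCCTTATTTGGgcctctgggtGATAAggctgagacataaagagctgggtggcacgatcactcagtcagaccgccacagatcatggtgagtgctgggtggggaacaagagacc
Actc1: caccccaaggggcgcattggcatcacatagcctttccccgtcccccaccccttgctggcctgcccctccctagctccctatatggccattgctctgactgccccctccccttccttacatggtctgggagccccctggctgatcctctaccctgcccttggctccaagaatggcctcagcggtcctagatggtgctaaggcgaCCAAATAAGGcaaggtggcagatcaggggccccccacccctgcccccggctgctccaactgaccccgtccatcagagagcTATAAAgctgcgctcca

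Promoter windows matched 9 of the 10 genes by symbol, with 10 windows in all, since Tnnt2 had a second window, which held no match. A gene was counted when any of its windows matched, while the shares of all are per window. TATAAA was found in Nppa, Actc1 and Myh6, which is 3 of 9 genes, and in 13.6% of all 32851 windows. GATAA was in 5 of 9, namely Nppa, Myl7, Mybpc3, Tnni3 and Tnnt2, and in 25.4% of all. CATTCC was in 3, Myl7, Myh6 and Tnnt2, and in 14.7% of all. The CArG box was in Myl7 and Actc1, and in 1.63% of all windows, and a MEF2 site was in Mybpc3 alone of the 9, and in 3.19% of all. Both strands were searched. A MEF2 site can hold TATAAA within it, and in the printed windows no match overlapped another. No match lay in the windows of Myl4 and Ryr2. A match is only a description of these letters.

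In the rat, 3 of the 9 genes were called, against 5.78% of all genes, and they did not move one way. Nppa and Myl4, both atrial, rose in ventilated lung, Atp2a2 fell, and the other 6 were not called. Of all 3876 rat genes tested, 2.48% were called higher, where 2 of the 9 heart muscle genes were, and 3.3% were called lower, where 1 of the 9 was. The difference was positive for 7 of 9 genes, against 49.3% of all genes, with a median of 0.31 against -0.0074. Ventilated arrays lay above both controls for 5 of 9 genes, where 27.8% of all genes did so, and below both for 1, where 27.2% did. At an unadjusted p under 0.05, 5 of 9 passed, against 25.3% of all genes.

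Nppa read 26.5, 36.0, 88.8 and 117.85 in the rat. Both ventilated arrays were far above both controls, and the group means were 31.2 ± 6.71 against 103 ± 20.5 (SD, n = 2 each). That is a rise of 1.73 on the log2 scale, or 3.32-fold (SE 0.27, 95% interval 1.08 to 2.38, limma adjusted p = 0.0233). No array was at the floor.

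Myl4 read 246, 221, 482 and 455, and both ventilated arrays lay well above both controls. The means were 234 ± 17.9 and 468 ± 19.3 (SD, n = 2 each), a rise of 1.01 on the log2 scale or 2.01-fold (SE 0.14, interval 0.67 to 1.34, limma adjusted p = 0.016). Myl7, the partner light chain, read 753, 784, 1066 and 855. Ventilated 1 stood above the other 3 arrays, and the difference of 0.31 (SE 0.14) was not called (limma adjusted p = 0.226).

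Troponin signals lay on the same side as Nppa and Myl4 without passing the test. Tnnt2 read 121, 139.7, 181 and 170.45, a difference of 0.44 (SE 0.17, limma adjusted p = 0.18). Tnni3 read 169, 187, 224 and 252.5, a difference of 0.42 (SE 0.16, limma adjusted p = 0.167). Neither gene's groups overlapped. Actc1 read 808, 741, 743 and 833, with each group holding a high and a low array, and its difference was 0.02 (SE 0.12). Myh6 was nearly flat at 37.95, 38.15, 39.2 and 36.45, with a difference of -0.01 (SE 0.24).

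The calcium pump gene Atp2a2 went the other way. Its signals were 555, 666, 320.1 and 314, and the group means were 610.5 ± 77.8 against 317 ± 4.67 (SD, n = 2 each). It fell by 0.94 on the log2 scale (SE 0.14, interval -1.29 to -0.60, limma adjusted p = 0.0208), to 0.521 of the control level. Ryr2 read 14.9, 12.5, 16.1 and 11.85, so close to the floor of 11.475 that its difference of 0.02 (SE 0.35) carries no order.

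**Figure D3:**
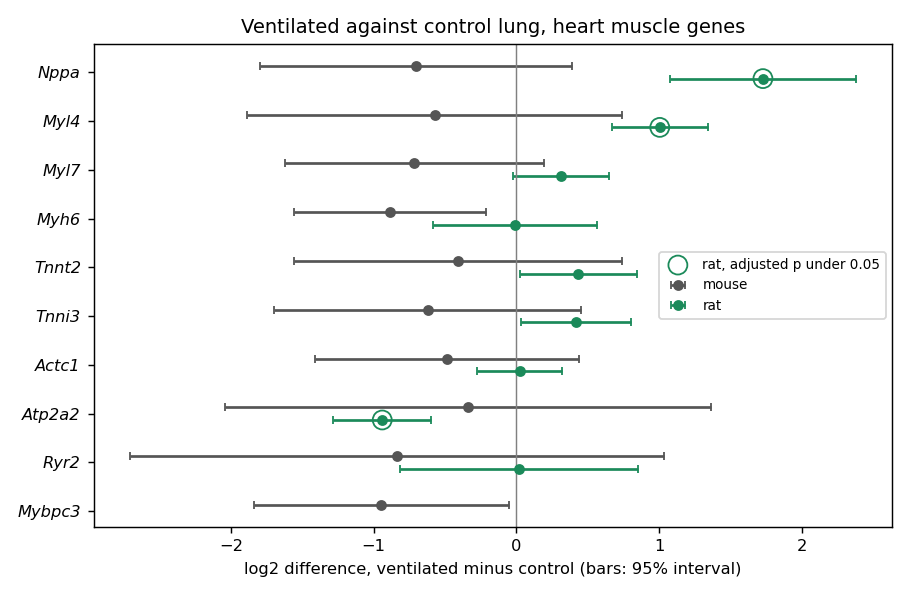
Log2 difference, ventilated minus control, of each heart muscle gene in mouse and rat lung, with bars for the 95% interval from limma. All 10 mouse estimates lie below 0 and only those of Myh6 and Mybpc3 have intervals that exclude it, while the rat intervals of Nppa, Myl4, Tnnt2 and Tnni3 lie above 0 and that of Atp2a2 below, before adjustment for the number of genes.

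Rat probe sets of a gene could be compared with one another for 6 of the genes. In a fit of every rat probe set, 2.76% of 5434 were called higher and 3.4% lower. The 4 Nppa probe sets gave differences of 1.73, 1.09, 0.94 and 1.03, with ventilated arrays above controls in each, and 2 of the 4 were called (limma adjusted p from 0.0205 to 0.086). The 2 Myl4 probe sets gave 1.01 and 1.02 and both were called, although they target the same transcript. The Atp2a2 probe sets gave -0.94, -1.07, -0.45 and -0.41, and only the brightest was called. In the next 2 of these, ventilated arrays read 27.35 and 26.8 against 49.5 and 65.4, and 20.8 and 22.6 against 28.1 and 31.4. The probe set with -0.41 read 197, 355, 196 and 201, so that control 2 alone was high.

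The 3 Myh6 probe sets, all of a type that may bind related transcripts, disagreed in size. The brightest gave -0.01 and the others gave -0.98 and -0.63 from signals of 5.89 to 33.99 that were partly under the floor. Both Tnni3 probe sets were positive, at 0.42 and 0.61, and so were both Myl7 probe sets, at 0.31 and 0.28. Neither gene had a called probe set.

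**Figure D4:**
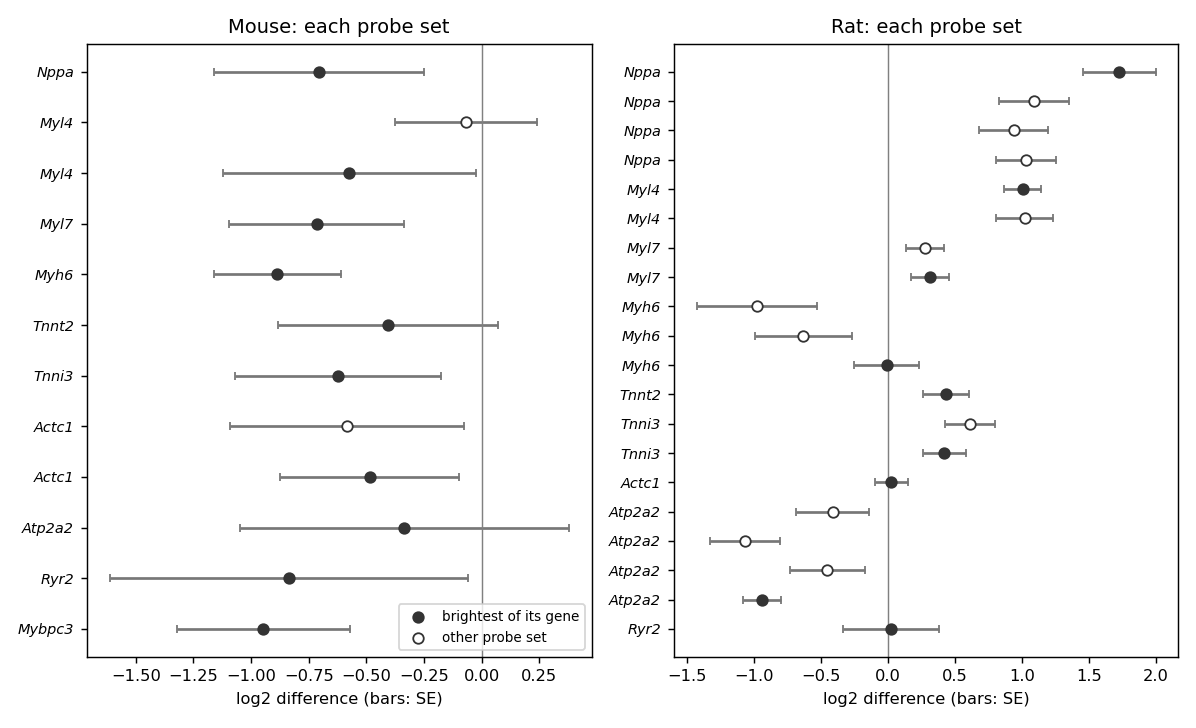
Log2 difference, ventilated minus control, with bars of 1 SE, for every heart muscle probe set, grouped by gene, mouse and rat apart. Filled points are the brightest probe set of a gene. The 4 rat Nppa probe sets lie between 0.94 and 1.73, both Myl4 probe sets lie near 1, and the 4 Atp2a2 probe sets lie between -1.07 and -0.41.

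With any 1 rat array left out, Nppa, Myl4 and Atp2a2 were no longer called, while their differences kept their direction. Those of Myl4 and Atp2a2 also stayed similar in size. Myl4 then ran from 0.94 to 1.09 (limma adjusted p from 0.139 to 0.3) and Atp2a2 from -1.08 to -0.81 (adjusted p from 0.139 to 0.302). Nppa was 1.52 without control 1 and 1.96 without control 2. Without ventilated 1 or ventilated 2 another Nppa probe set was the brightest, giving 1.34 and 0.98, where the original probe set gave 1.92 and 1.51. The adjusted p for Nppa ran from 0.148 to 0.384, and from 0.133 to 0.313 with the original probe set. With the mean of its probe sets in place of the brightest, Atp2a2 had a difference of -0.72 and was not called (limma adjusted p = 0.103), while Nppa kept 1.20 (adjusted p = 0.039).

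Whether the differences of rat and mouse lung were unequal was tested for 2258 genes measured in both. The rat difference minus the mouse difference was above 0 for 8 of the 9 shared heart muscle genes, as it was for 51% of all genes. That count was 6 of 9 without mouse control 2 and 9 of 9 without mouse control 1. For Nppa the rat minus mouse difference was 2.44 (SE 0.59), with limma adjusted p = 0.149, and for Myl4 1.58 (SE 0.66), with adjusted p = 0.369. Without mouse control 2 it was 0.74 for Myl4 and 0.50 for Myl7. Myl7 (1.03, adjusted p = 0.397) and Myh6 (0.88, adjusted p = 0.348) were smaller, and for Atp2a2 it was -0.60 (SE 0.85, adjusted p = 0.826), or 0.54 without mouse control 1. None of the 9 was called at 0.05, where 0.133% of all genes were. Species, tidal volume and duration cannot be told apart in this comparison.

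Related muscle lists give the surroundings of these genes. Other striated muscle filament and disc genes followed control 2 in the mouse: 10 of 12 tested were highest there and 10 of 12 were negative, with a median of -0.34 and 0 called. Energy genes that heart shares with skeletal muscle and brown fat had 8 of 12 highest on control 2 and 9 of 12 negative, with a median of -0.29. Skeletal muscle genes had 3 of 14 highest there. Calcium and rhythm genes of heart had 4 of 8 highest on control 2 and 5 of 8 negative, with a median of -0.11. Heart transcription factors had 1 of 4 highest on control 2 and 3 of 4 negative, with a median of -0.26. Of 3 other atrial genes tested, 0 were highest on control 2. The connexin Gja5 read 89.4, 74.7, 73.1 and 116.9. Dkk3 read 163.6, 201.4, 122.7 and 201.9, with control 2 close to ventilated 2.

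The ventricular list was short in the mouse. Myh7, the beta myosin heavy chain, read 527, 475, 215 and 393, with a difference of -0.78 (SE 0.35). Myl2, picked after its values were seen, read 4.22, 4.25, 3.1 and 2.3, below the floor on all 4 arrays. Myl3 of the same list, also picked after its values were seen, read 11.6, 29.9, 7.21 and 30.4. Its control 2 and ventilated 2 signals were above the floor and the others under it. The ventricular list had 0 of 3 tested genes highest on control 2, where 23.9% of all genes were. Lists of 3 genes, this one and the other atrial genes, are too short to be told apart from that share. Smooth muscle genes were negative in 9 of 9, with 5 highest on control 2. The list median of log2 signal minus gene mean was 0.14, 0.25, -0.58 and 0.15, so ventilated 1 was the low array. Acta2 of this list read 831, 1277, 183.5 and 949. How much pulmonary vein muscle or carried-over heart tissue each sample held was not tested.

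Ventilated rat lung differed in several other tissue markers at the same time. Of 8 thymus and T cell genes tested, 7 were called higher, where 2.48% of all rat genes were. The summed signals of that list were 819 and 681 in controls against 6996 and 7795. Cd3g, a chain of the T cell receptor complex, read 48.5, 43.55, 961 and 997. Fat genes had 5 of 8 called higher and 1 lower, where 2.48% and 3.3% of all genes were. Ucp1, the brown fat uncoupling protein, read 75.2, 58.9, 1216 and 1182. The fat gene called lower was Lipe, at -0.59 (SE 0.12, limma adjusted p = 0.0488). For Lipe, Lep (-0.69) and Lpl (-0.18), 3 of the 8, both ventilated arrays lay below both controls. Of all genes 27.2% did so. The part of fat or thymus tissue in the Nppa, Myl4 and Atp2a2 results was not tested.

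Of the muscle energy genes tested in the rat, 4 of 11 were called higher, where 2.48% of all genes were. In this list 10 of 11 were positive, where 49.3% of all genes were, and the list median was 0.89. Fabp3, the heart fatty acid binding protein, rose by 2.06 on the log2 scale (SE 0.21, limma adjusted p = 0.00838). Cox8b, a cytochrome oxidase subunit of heart, skeletal muscle and brown fat, rose by 1.98 (SE 0.17, limma adjusted p = 0.00447). Among other filament and disc genes, 8 of 10 were positive and only Tcap, the titin cap, was called, at 44.2, 39.6, 114 and 107.75, a rise of 1.41 (limma adjusted p = 0.0192). Skeletal muscle genes had 12 of 15 positive, with a median of 0.46 and 0 called.

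Chamber markers were mixed in the rat. Myl2 read 79.75, 58.9, 108 and 99.8, above both controls in ventilated lung, but was not called (0.60, SE 0.23, limma adjusted p = 0.164). Both other atrial genes tested were negative, at -0.07 for Gja5 and -0.10 for the potassium channel gene Kcna5. Nkx2-5, a heart transcription factor, read 61.5, 56.4, 61.4 and 56.5, with a higher and a lower array in each group. Calcium and rhythm genes had 4 of 9 positive and 0 called. The brightest of that list, Slc8a1 and Kcnh2, gave -0.51 (SE 0.20, limma adjusted p = 0.172) and -0.18 (SE 0.21). Smooth muscle genes had 3 of 8 positive, with Myh11, the smooth muscle myosin heavy chain, falling by 1.53 (SE 0.16, limma adjusted p = 0.00852). Lung epithelial genes were negative in 9 of 9, with Nkx2-1 and Sftpc called lower.

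**Figure D5:**
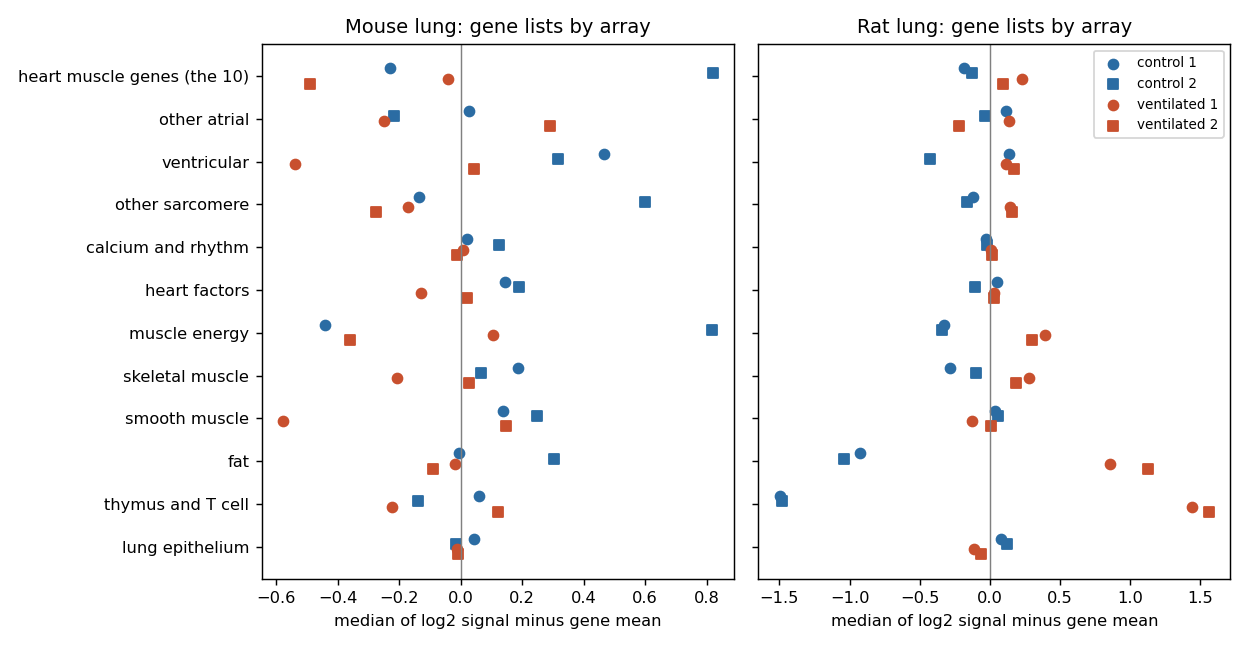
Median, over the tested genes of each list, of log2 signal minus the gene's mean over the 4 arrays of its species, 1 point per array. In the mouse, control 2 stands apart for the 10 heart muscle genes (0.82), other sarcomere genes (0.60) and muscle energy genes (0.82), and in the rat the fat and thymus lists separate the groups most.

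Genes with the most similar profile were found by Pearson correlation with the mean centred profile of the heart muscle genes over the 4 arrays of a species. In the mouse they were Fabp3, Aoc1, H2-Ab1, Reep6, Rabgap1l and Scel, with r from 0.998 to 0.9998, and 135 of 5021 genes reached 0.95. In the rat they were Phgdh, Tkt, Cd8b, Pla2g2a, Tmsb15b2 and Psmb5, with r of at least 0.9995, and 234 of 2491 genes reached 0.95. Over 4 arrays such values are common and serve only as a description. Between the heart muscle genes themselves the median pairwise r was 0.871 in the mouse and 0.0924 in the rat.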

How the data were processed

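Lung RNA was analysed in 4 mouse samples on MG_U74Av2 arrays and 4 rat samples on the rat array of the same maker. The deposited values are probe set intensities on a linear scale; they show that the authors scaled each array, since every mouse array had a 2% trimmed mean of 150 and every rat array one of 149 to 150. Which software and scaling target they used is not given in the sources. Medians were 55.65 to 63.6 in the mouse and 42.6 to 46.2 in the rat. Array signals have no counting depth, and 2 arrays per group limit the precision.

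Probe sets were named with the platform annotation: 10833 mouse probe sets had 1 symbol, 396 several and 1193 none, and 7006, 308 and 1426 in the rat. The tests left out 66 mouse control probe sets. Arrays were quantile-normalised within species, floored at the 25th percentile and put on the log2 scale. The brightest probe set stood for a gene, and genes had to have a mean signal above that percentile, leaving 6888 of 8251 mouse and 3876 of 4736 rat genes. Groups, taken from the sample titles, were compared in R 4.3.3 with the two-sided moderated test of limma 3.58.1 (lmFit, eBayes with trend, Benjamini-Hochberg). The steps were tested on simulated data.

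The 10 genes and the gene lists were chosen with earlier results of these data known. The naming rule took all 10 genes with each probe set and the 6 genes most like the mean profile. From each other list it took up to 4 called genes or the 2 brightest. Some of those list genes are not shown above. Outside the rule, Myl2 and Myl3 in the mouse and Lipe, Lep and Lpl in the rat were named after their values were seen. Alternatives were other scalings, floors, filters, probe set summaries and variance priors, a replicate block, and leaving out each array.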

Additional observations from a re-analysis of the deposited data

How the results depend on the processing

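Each count and gene value was recomputed under the other settings, and of 595 values 518 kept their direction and their side of the threshold or, for counts and medians, stayed near the reported value. Variance priors and replicate blocks cannot change a log2 difference or a median, so part of the 518 was fixed in advance. A median was near when within the spread between replicates, so mouse medians of -1.18 and -0.31 counted as near -0.66. The 518 is therefore no measure of stability. The 3 rat calls held under median scaling, the deposited scaling, cyclic loess, a floor of 1, a filter at the 50th percentile and a robust prior. They were lost, with 0 of the 9 genes called, under a floor at the 40th percentile (23 rat genes called in all), no filter (39) and no variance trend (61), and with any array left out (0 in all). Tested by probe set, 5 of the 20 rat heart muscle probe sets were called, where 335 of all 5434 were. They belong to the same 3 genes, Nppa, Myl4 and Atp2a2. Median scaling gave 155 rat genes higher and 102 lower, against 96 and 128. The rat median over the 9 genes was 0.43 under median scaling and 0.42 under the filter at the 50th percentile, and 0.15 to 0.34 on leaving out an array. Rat Ryr2 was -0.022 under median scaling and -0.11 on the deposited scale.

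Leaving out each array gave ranges of -1.18 to -0.047 for the mouse median, -1.43 to 0.27 for mouse Myl4, -1.06 to 0.24 for Tnnt2, -1.02 to 0.049 for Actc1, -1.48 to 0.80 for Atp2a2, -2.04 to 0.33 for Ryr2, -1.25 to -0.18 for Nppa, -1.26 to -0.19 for Myl7 and -1.11 to -0.14 for Tnni3. In the rat they were -0.065 to 0.041 for Myh6, -0.061 to 0.10 for Actc1 and -0.20 to 0.24 for Ryr2. For the rat minus mouse difference they were 1.69 to 2.98 for Nppa, 0.74 to 2.44 for Myl4, 0.50 to 1.57 for Myl7, 0.20 to 1.497 for Tnnt2, 0.56 to 1.53 for Tnni3, -0.026 to 1.04 for Actc1, -1.74 to 0.54 for Atp2a2 and -0.31 to 2.06 for Ryr2. The group that lost an array then has 1, and its spread is taken from the other group. With each gene kept on its original probe set, chosen after the data were seen, 5 rat genes were called without control 1, 7 without control 2 and 0 without either ventilated array, with Nppa, Myl4 and Atp2a2 not among them.

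Genes with an unequal difference between species numbered 3. They were 10 under median scaling, 6 on the deposited scale, 11 with the floor at the 40th percentile, 7 with a floor of 1, 22 with no filter, 5 with the mean of probe sets, 1 with no variance trend and 0 to 79 on leaving out an array, and no heart muscle gene was among them. The causes were not tested.

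The labels do not say what the replicate numbers share, and the deviations of same-numbered arrays gave 1 correlation per species, -0.285 in the mouse and -0.106 in the rat, so the arrays were not treated as paired. With the replicate number as a block, 146 rat genes were called, the 3 heart muscle calls among them (limma adjusted p from 0.0208 to 0.0341), 0 mouse genes and 0 for the species difference. With the numbers crossed, chosen after the data were seen, 232 rat and 0 mouse genes were called. A scan or hybridisation day as a block was not run, since no day was given in the files used here.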
